A study of Arabidopsis thaliana with 18 samples.

Results

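The 8 genes described here act in the synthesis of abscisic acid (ABA), in the restraint of its signal and in its output. They were taken by gene ID from a table of 33602 loci: NCED3 (AT3G14440) for synthesis, ABI1 (AT4G26080), ABI2 (AT5G57050), HAB1 (AT1G72770), HAI1 (AT5G59220) and HAI2 (AT1G07430) for the protein phosphatases, and RAB18 (AT5G66400) and RD29B (AT5G52300) for output. All 8 passed the filter on low counts in all 12 comparisons made. The RNA-Seq libraries came from whole leaves of Arabidopsis thaliana in 6 groups of 3: fc2 pub4 (fc2-1 pub4-6), fc2 (fc2-1) and wild type (wt, Col-0), each shifted to cycling light (16 h light and 8 h dark) for 2 days after 17 days of constant light, or kept in constant light (24 h light) for 19 days. Every plant was harvested on day 19, 1 h after subjective dawn, and a library pooled the leaves of 3 plants. The fc2-1 allele is a T-DNA insertion in the gene for plastid ferrochelatase 2, an enzyme of heme synthesis, and it was present in both mutant groups, so that the effect of pub4-6 was measured only on top of it. The pub4-6 allele is a semi-dominant point mutation in the gene for the E3 ubiquitin ligase Plant U-Box 4. Each mutant was represented by a single line.

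ABA is the hormone that plants make when water is short, and it closes stomata and changes transcription in leaves. NCED enzymes cleave carotenoid precursors in the plastid, and this cleavage limits the rate of synthesis. Clade A type 2C protein phosphatases (PP2Cs) hold SnRK2 kinases inactive. When ABA is bound by PYR/PYL receptors, the receptors inhibit the PP2Cs, and the released kinases activate bZIP factors that bind ABA-responsive elements (ABREs) and switch on genes such as RAB18, a dehydrin, and RD29B. Transcripts of most clade A PP2Cs are themselves raised by ABA, which makes them a feedback brake as well as a readout. The fc2 mutant accumulates a photosensitive tetrapyrrole and produces singlet oxygen when light follows dark, and the pub4-6 allele was isolated because it blocks the ensuing cell death. Whether this stress and its modifier change the ABA genes is the question that the comparisons address.

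FC2 transcripts followed the labels, with 52.3 to 68.7 CPM (counts relative to the scaled total of the library) in fc2 pub4, 30.0 to 55.8 CPM in fc2 and 131 to 174 CPM in wt over both light conditions. Between the mutants FC2 differed in 24 h light, with 52.3 to 58.7 CPM in fc2 pub4 and 30.0 to 34.6 CPM in fc2. This 1.73-fold difference was called (edgeR adjusted p = 0.00069), and that in cycling light (1.20-fold) was not (edgeR adjusted p = 0.0551). PUB4 transcripts cannot check a point mutation, and they lay between 20.6 and 28.0 CPM in all 18 libraries. In cycling light PUB4 was called 1.285-fold lower in fc2 pub4 than in fc2 (edgeR adjusted p = 0.00253). The part of these differences in the results was not tested. Libraries held 26994499 to 39382316 counts. Leaf mesophyll markers were abundant, and seed storage markers were at or near 0 (a summed level of at most 0.198 CPM). Other marker lists differed between groups. In cycling light the summed level of 4 mesophyll markers was 37964 to 39063 CPM in fc2 pub4, 16741 to 21529 CPM in fc2 and 42207 to 45336 CPM in wt, and that of 4 guard cell markers was 73.1 to 75.0 CPM in fc2 pub4, 44.3 to 48.6 CPM in fc2 and 91.2 to 111 CPM in wt. The summed level of 3 senescence markers was 122 to 187 CPM in fc2 pub4, 746 to 1437 CPM in fc2 and 51.2 to 108 CPM in wt, and SAG13 alone had 739.9 to 1423 CPM in fc2. ORE1 was likewise called higher in fc2 than in both other genotypes, whereas SAG12 went the other way between the mutants, with 7.72 to 14.2 CPM in fc2 pub4, 0.370 to 0.690 CPM in fc2 and 0.193 to 11.4 CPM in wt. PYK10, which made up nearly all of the summed level of 3 root markers, had 80.8 to 123 CPM in fc2 pub4, 74.1 to 106 CPM in fc2 and 33.5 to 38.6 CPM in wt and was called higher in both mutants than in wt. The summed level of 7 flower markers overlapped between fc2 and wt in cycling light and was below both in fc2 pub4 (3.18 to 8.00 CPM), and in 24 h light it was 7.07 to 8.96 CPM in fc2 pub4, 19.1 to 45.0 CPM in fc2 and 4.04 to 8.31 CPM in wt. The part of these markers in the results was not tested. Since the tissue is a mixture of cells, fewer cells of a type and less RNA per cell cannot be told apart.

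Upstream windows are shown first for 4 genes called higher in fc2 than in wt in cycling light, because they differ in the motif that ABA-activated bZIP factors bind. Each window ran from 250 bases before the annotated gene start to 50 bases from it (RefSeq, TAIR10.1 build), and matches to the ABRE core ACGTG on either strand are in capitals. The windows are RD29B at chr5:21236771-21237070 (plus strand), RAB18 at chr5:26519398-26519697 (minus strand), HAI2 at chr1:2282779-2283078 (minus strand) and HAI1 at chr5:23896890-23897189 (minus strand), each printed 5′ to 3′ along its gene.
RD29B: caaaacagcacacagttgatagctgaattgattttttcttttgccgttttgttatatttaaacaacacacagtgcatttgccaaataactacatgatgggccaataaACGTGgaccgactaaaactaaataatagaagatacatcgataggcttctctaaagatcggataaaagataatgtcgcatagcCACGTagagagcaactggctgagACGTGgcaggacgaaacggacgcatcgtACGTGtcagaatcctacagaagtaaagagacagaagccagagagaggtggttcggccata
RAB18: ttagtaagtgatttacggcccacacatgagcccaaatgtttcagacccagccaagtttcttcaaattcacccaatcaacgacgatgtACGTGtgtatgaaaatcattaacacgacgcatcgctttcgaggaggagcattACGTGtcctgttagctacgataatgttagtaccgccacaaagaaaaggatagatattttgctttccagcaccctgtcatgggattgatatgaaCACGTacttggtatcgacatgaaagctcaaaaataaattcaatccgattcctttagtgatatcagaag
HAI2: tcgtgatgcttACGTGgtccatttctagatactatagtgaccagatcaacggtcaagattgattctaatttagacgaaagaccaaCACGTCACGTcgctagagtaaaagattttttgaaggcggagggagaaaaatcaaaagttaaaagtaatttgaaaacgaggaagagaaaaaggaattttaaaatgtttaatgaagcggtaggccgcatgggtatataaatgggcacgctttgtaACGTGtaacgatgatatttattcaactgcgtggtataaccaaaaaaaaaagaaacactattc
HAI1: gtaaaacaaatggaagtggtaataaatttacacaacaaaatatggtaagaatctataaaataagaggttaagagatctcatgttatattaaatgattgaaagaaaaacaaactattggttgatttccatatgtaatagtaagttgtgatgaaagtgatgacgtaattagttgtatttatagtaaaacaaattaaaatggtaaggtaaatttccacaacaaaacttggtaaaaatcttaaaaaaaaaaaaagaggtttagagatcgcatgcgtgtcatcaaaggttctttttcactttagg
RD29B had 4 matches, which began at -143, -61, -38 and -10 relative to the first annotated base as 0. In HAI2 there were also 4, of which the pair at -165 and -160 lay side by side, and RAB18 had 3. HAB1 had 1, at -19, and the windows of NCED3, ABI1, ABI2 and HAI1 had none. Of 27561 windows of protein-coding genes, 26.7% held at least 1 such match and 10.7% held 2 or more. The longer form ACGTGNC was in 10.3% of windows, and RD29B held 3 of them while HAB1, HAI2 and RAB18 held 1 each. The drought-responsive core CCGAC, searched on both strands as well, was found in 15.0% of windows and among the 8 genes only in RD29B, at -136. A match is a stretch of letters and not a known binding site, and no match speaks only for these 300 bases.

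**Figure D1:**
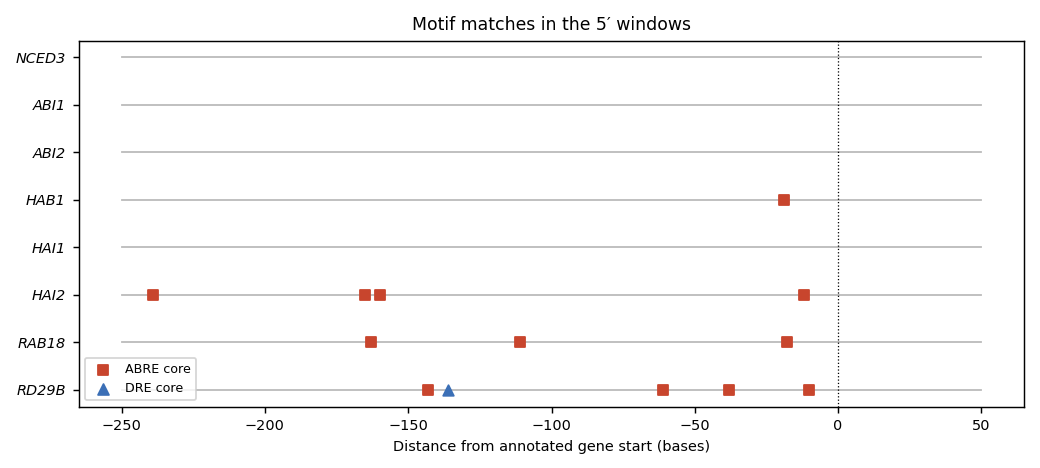
Matches to the ABRE core (red squares) and the drought-responsive core (blue triangle) in the windows of the 8 genes. The x axis is the distance in bases from the annotated gene start, shown as a dotted line, and RD29B, HAI2 and RAB18 carried 4, 4 and 3 ABRE cores.

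The genes occupy separate loci. NCED3 is a gene without introns at chr3:4831286-4834015 (minus strand). ABI1 lies at chr4:13219915-13222376 (minus strand), ABI2 at chr5:23087122-23089631 (plus strand), HAB1 at chr1:27389948-27393327 (plus strand), HAI1 at chr5:23894404-23896939 (minus strand), HAI2 at chr1:2280746-2282828 (minus strand), RAB18 at chr5:26518277-26519447 (minus strand) and RD29B at chr5:21237021-21239531 (plus strand). No stretch of 50 exonic bases of any of the 8 recurred elsewhere in the genome, so reads of these genes could be placed. ABI1 and RAB18 each overlap a gene on the other strand (AT4G26070 and AT5G66410) over 1.01% of their exonic bases.

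In cycling light, fc2 leaves had the highest mean level of all 8 genes among the 6 groups. Calls below are at an adjusted p under 0.01 (edgeR quasi-likelihood test, Benjamini-Hochberg over all genes tested), and a differentially expressed gene (DEG) also passed an absolute log2 fold change (log2FC) of 1.5. In "fc2 vs wt, cycling", 7 of the 8 genes rose and none fell, against 21.8% of all 20122 genes tested that rose. In "fc2 pub4 vs fc2, cycling", 6 of the 8 fell and none rose, against 19.0% of all 20116 genes that fell. In "fc2 pub4 vs wt, cycling", ABI2 and RAB18 fell and no gene rose, against 8.02% of all genes that fell. The median log2FC of the 8 genes was 0.99 in the first of these comparisons, -1.25 in the second and -0.13 in the third, beside medians over all genes of -0.00, 0.01 and 0.01. In the first, all fc2 libraries lay above all wt libraries for 7 of the 8 genes, against 30.6% of all genes. In the second, all fc2 pub4 libraries lay below all fc2 libraries for 7, against 28.9%. In the third, all fc2 pub4 libraries lay below all wt libraries for 3, against 22%. The 3 comparisons share libraries and are not independent of each other.

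**Figure D2:**
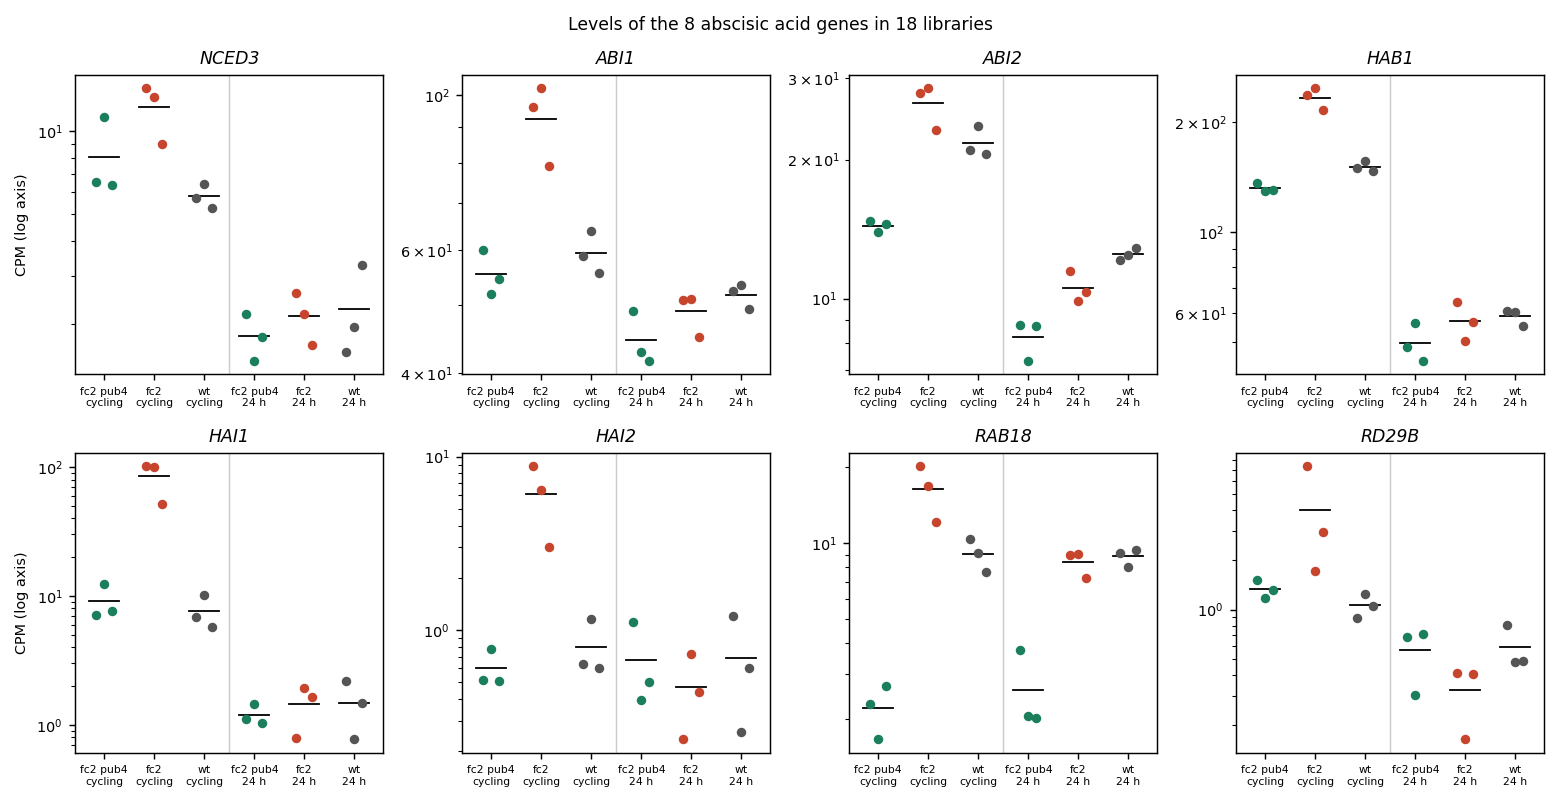
Level of each gene in CPM (log axis, scaled per gene) in 18 libraries. Points are libraries and lines are means of 3, and in cycling light the fc2 mean was the highest of the 6 groups for every gene.

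Synthesis was represented by NCED3, the 9-cis-epoxycarotenoid dioxygenase that responds most to drought in leaves. In cycling light NCED3 had 14.3, 13.3 and 8.97 CPM in fc2, against 5.74, 6.44 and 5.27 CPM in wt. All fc2 libraries were above all wt libraries, and the gene rose 2.13-fold (log2FC 1.09 ± 0.18 SE, adjusted p = 0.000718). In fc2 pub4 the levels were 6.54, 11.2 and 6.40 CPM, with replicate 2 inside the range of fc2. The log2FC of fc2 pub4 vs fc2 was -0.61 ± 0.24 (adjusted p = 0.0556), and that of fc2 pub4 vs wt was 0.49 ± 0.20 (adjusted p = 0.1), so that neither passed the test. Leaving out fc2 pub4 cycling replicate 2 gave -0.93 for the first of these, and the gene was called in 2 of the 6 fits that left out a library. NCED3 was low in every genotype in 24 h light, at 1.48 to 2.18 CPM in fc2 pub4, 1.69 to 2.59 CPM in fc2 and 1.59 to 3.29 CPM in wt.

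The phosphatases HAI1 and HAI2 belong to the subgroup named for being highly ABA-induced, and they showed the largest differences between fc2 and wt among the 8 genes. HAI1 had 101, 101 and 52.0 CPM in fc2 in cycling light, against 6.93, 10.2 and 5.77 CPM in wt. Even the lowest fc2 library was several times above every wt library, and the gene rose 11.4-fold (log2FC 3.52 ± 0.29, adjusted p = 1.65e-05). In fc2 pub4 it had 7.12, 12.4 and 7.68 CPM, which is 9.43-fold lower than in fc2 (log2FC -3.24 ± 0.29, adjusted p = 2.88e-05). These levels overlapped those of wt, and fc2 pub4 vs wt had an adjusted p of 0.417. No HAI1 library exceeded 2.21 CPM in 24 h light.

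HAI2 was scarcer, with 7 to 39 counts in every library outside fc2 in cycling light. It had 8.77, 6.38 and 3.02 CPM in fc2 in cycling light, against 0.633, 1.16 and 0.607 CPM in wt. The groups did not overlap, and HAI2 rose 7.87-fold (log2FC 2.98 ± 0.43, adjusted p = 0.000339). In fc2 pub4 it had 0.513, 0.776 and 0.509 CPM, 10.2-fold lower than in fc2 (log2FC -3.35 ± 0.42, adjusted p = 0.000172). The libraries of fc2 pub4 overlapped those of wt for HAI2 in both lights.

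The phosphatases ABI1, ABI2 and HAB1 moved far less. HAB1 had 237, 248 and 216 CPM in fc2 in cycling light, against 150, 156 and 147 CPM in wt, and rose 1.57-fold (log2FC 0.65 ± 0.07, adjusted p = 5.12e-05). In fc2 pub4 it had 136, 130 and 130 CPM, below every fc2 and every wt library (log2FC vs fc2 -0.84 ± 0.07, adjusted p = 1.99e-05). Against wt its log2FC was -0.18 ± 0.05 with an adjusted p of 0.0168, which missed the threshold, and DESeq2 called it (adjusted p = 0.00835). ABI1 had 96.1, 102 and 79.2 CPM in fc2 in cycling light, against 58.9, 63.8 and 55.7 CPM in wt (log2FC 0.66 ± 0.10, adjusted p = 0.000422). In fc2 pub4 ABI1 had 60.0, 51.9 and 54.5 CPM, within or just under the range of wt and below fc2 (log2FC -0.75 ± 0.10, adjusted p = 0.000248).

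ABI2, like HAB1, was lower in fc2 pub4 than in every library of the other genotypes in cycling light, and here the difference from wt passed the test. It had 14.8, 14.0 and 14.5 CPM in fc2 pub4 in cycling light, against 27.8, 28.5 and 23.2 CPM in fc2 and 20.9, 23.7 and 20.6 CPM in wt. The gene fell 1.86-fold relative to fc2 (log2FC -0.90 ± 0.10, adjusted p = 7.29e-05) and 1.49-fold relative to wt (log2FC -0.58 ± 0.08, adjusted p = 0.000309). Between fc2 and wt the libraries overlapped, with a log2FC of 0.31 ± 0.10 and an adjusted p of 0.0233, which left ABI2 as the only gene of the 8 not called there. It was called without fc2 cycling replicate 3 (log2FC 0.43, adjusted p = 0.000737). In 24 h light ABI2 had 8.78, 7.35 and 8.72 CPM in fc2 pub4, against 12.1, 12.4 and 12.8 CPM in wt, with a log2FC of -0.59 ± 0.10 that missed the threshold (adjusted p = 0.0163). All fc2 pub4 libraries were below all wt libraries, as for 12.7% of all genes tested. The difference was called with DESeq2 (adjusted p = 0.000534), with all 18 libraries in 1 fit (0.00219) and without a filter on low counts (0.00881).

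Per kilobase of exon, the makeup of the 5 phosphatases differed between groups. HAB1 and ABI1 had the highest means in every group, at 83.7 and 42.7 CPM per kb in fc2 in cycling light, where HAI1 averaged 40.6 CPM per kb. The order of ABI1 and HAI1 there was not resolved, since HAI1 made up 16.6% to 24.9% of the summed level of the 5 and ABI1 22.8% to 24.3%. HAI1 made up 21.9% ± 4.62 of the summed level of the 5 in fc2 in cycling light, against 5.21% ± 1.75 in fc2 pub4 and 3.81% ± 0.902 in wt (SD, n = 3). Its share in 24 h light was 1.34% in fc2 pub4, 1.46% in fc2 and 1.39% in wt. The sum itself was 182 ± 27.3 CPM per kb in fc2 in cycling light, against 83.9 ± 2.43 in fc2 pub4 and 95.1 ± 5.65 in wt. HAI2 remained the scarcest of the 5 in all 6 groups, at no more than 3.18 CPM per kb on average.

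RAB18 was called lower in fc2 pub4 than in wt in both lights. It had 2.29, 1.66 and 2.69 CPM in fc2 pub4 in cycling light, against 20.2, 16.8 and 12.1 CPM in fc2 and 10.4, 9.13 and 7.70 CPM in wt. The 3 genotypes did not overlap. RAB18 fell 7.45-fold in fc2 pub4 relative to fc2 (log2FC -2.90 ± 0.22, adjusted p = 1.55e-05) and 4.03-fold relative to wt (log2FC -2.01 ± 0.18, adjusted p = 1.3e-05). It rose 1.84-fold in fc2 relative to wt (log2FC 0.88 ± 0.19, adjusted p = 0.00329), a call lost in 3 of 6 fits that left out a library (wt cycling replicate 2, wt cycling replicate 3 or fc2 cycling replicate 2, adjusted p up to 0.0184).

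The lower RAB18 level of fc2 pub4 was also present without the shift to cycling light. In 24 h light it had 3.77, 2.06 and 2.01 CPM in fc2 pub4, against 8.97, 9.07 and 7.25 CPM in fc2 and 9.15, 8.04 and 9.37 CPM in wt. Every fc2 pub4 library was below every library of the other genotypes. Such separation held for 12.7% of all genes against wt and 14.3% against fc2. In "fc2 pub4 vs wt, 24 h", RAB18 was the only gene of the 8 called lower, against 0.354% of all 19782 genes (log2FC -1.76 ± 0.23, adjusted p = 0.00453). In "fc2 pub4 vs fc2, 24 h", it was again the only gene of the 8 called lower, against 0.589% of all 19851 genes (log2FC -1.68 ± 0.23, adjusted p = 0.00334). The first call held in 1 of 6 fits that left out a library, without fc2 pub4 24 h replicate 1, and was lost without wt 24 h replicate 1, 2 or 3 or fc2 pub4 24 h replicate 2 or 3 (log2FC -2.12 to -1.60, adjusted p up to 0.0317). The second was lost without fc2 24 h replicate 1 or 3 or fc2 pub4 24 h replicate 3 (adjusted p up to 0.0241).

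SUC2, the sucrose transporter that marks phloem companion cells, was lower in fc2 pub4 as well, at 67.6 to 82.1 CPM in cycling light, against 142 to 178 CPM in fc2 and 141 to 157 CPM in wt. SUC2 in 24 h light had 118 to 124 CPM in fc2 pub4, against 166 to 188 CPM in fc2 and 172 to 192 CPM in wt. The root marker PYK10 was called higher in fc2 pub4 than in fc2 in 24 h light, at 63.6 to 103 CPM in fc2 pub4, 24.5 to 29.4 CPM in fc2 and 29.8 to 44.7 CPM in wt. The summed level of 4 guard cell markers in 24 h light was 59.1 to 65.0 CPM in fc2 pub4. It was 81.3 to 89.8 CPM in fc2 and 75.1 to 93.3 CPM in wt. For 4 mesophyll markers it was 24346 to 28071 CPM in fc2 pub4, 28792 to 34046 CPM in fc2 and 31441 to 34545 CPM in wt. None of the guard cell or mesophyll markers was called there between fc2 pub4 and either other genotype. The part of SUC2, PYK10 and these markers in the RAB18 result was not tested.

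RD29B encodes a hydrophilic stress protein and is a standard ABA reporter gene in vegetative tissue. It had 7.34, 1.70 and 2.94 CPM in fc2 in cycling light, against 0.894, 1.24 and 1.05 CPM in wt. Replicate 1 was well above the other fc2 libraries, and all were above wt. RD29B rose 3.84-fold (log2FC 1.94 ± 0.51, adjusted p = 0.00953). That call was lost without fc2 cycling replicate 1 (log2FC 1.18) and without wt cycling replicate 1, 2 or 3 (adjusted p up to 0.0388 over these 4 fits), and it held without fc2 cycling replicate 2 or 3. In fc2 pub4 RD29B had 1.51, 1.18 and 1.31 CPM, with a log2FC vs fc2 of -1.60 ± 0.48 that missed the threshold (adjusted p = 0.0204) and was -0.82 without fc2 cycling replicate 1. DESeq2 (adjusted p = 0.00062) and the fit of all 18 libraries (0.00368) called it.

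**Figure D3:**
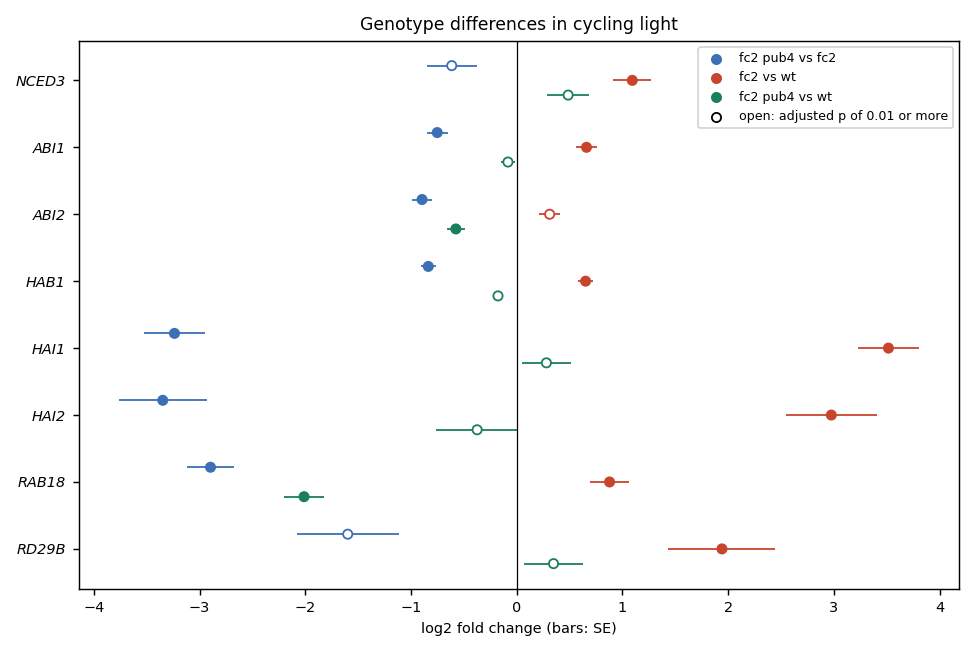
The log2 fold change of each gene between genotypes in cycling light, with its standard error, filled where the adjusted p was under 0.01. The fc2 vs wt values (red) lie between 0.31 and 3.52 and the fc2 pub4 vs fc2 values (blue) between -3.35 and -0.61, while fc2 pub4 vs wt (green) passed the test for ABI2 and RAB18.

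Without the shift, no difference between fc2 and wt was called in these genes. In "fc2 vs wt, 24 h", edgeR called none of the 8, DESeq2 none, and 1 (ABI2) had an unadjusted p under 0.05, against 0.315% of all 19664 genes called in either direction. ABI2 had 11.5, 9.90 and 10.3 CPM in fc2, against 12.1, 12.4 and 12.8 CPM in wt. For RD29B the levels were 0.412, 0.165 and 0.408 CPM in fc2, against 0.812, 0.482 and 0.491 CPM in wt, from as few as 5 counts. All fc2 libraries were below all wt libraries for ABI2 and RD29B, as for 9.62% of all genes tested. The log2FC of RD29B was -0.84 ± 0.45 (adjusted p = 0.42).

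The change of light was itself followed by higher levels of several of the genes in every genotype. Cycling light leaves were collected 1 h into a light period that followed 8 h of dark. The 24 h light leaves had had no dark and no daily light cycle. The dark period, the return to light and the time of day of the plants therefore cannot be told apart in the light comparisons. In "cycling vs 24 h, fc2 pub4", HAI1, NCED3, HAB1, ABI2 and ABI1 rose, against 20.7% of all 19839 genes. HAI1 rose 7.64-fold there (log2FC 2.93 ± 0.25, adjusted p = 3.73e-06) and NCED3 4.43-fold (log2FC 2.15 ± 0.25, adjusted p = 3.59e-05). HAB1 rose 2.68-fold and ABI2 1.75-fold. The ABI1 call (1.25-fold, adjusted p = 0.00579) held in 2 of 6 fits that left out a library and was lost without fc2 pub4 cycling replicate 1 or 3 or fc2 pub4 24 h replicate 2 or 3 (adjusted p up to 0.037). RD29B was 2.34-fold higher in cycling light and missed the threshold (adjusted p = 0.0127). All its cycling light libraries were above all 24 h libraries, as for 30.6% of all genes tested. DESeq2 called it (adjusted p = 0.00807), as did edgeR with at least 10 counts in every library (0.00841), and 0 of 6 fits that left out a library did. The RAB18 and HAI2 levels of fc2 pub4 overlapped between the lights.

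In "cycling vs 24 h, fc2", all 8 genes rose, against 22.7% of all 20168 genes. HAI1 rose 58.1-fold (log2FC 5.86 ± 0.35, adjusted p = 2.1e-06), with 52.0 to 101 CPM in cycling light against 0.794 to 1.95 CPM in 24 h light. HAI2 rose 13.0-fold, RD29B 11.8-fold, NCED3 5.62-fold, HAB1 4.07-fold, ABI2 2.49-fold, RAB18 1.93-fold and ABI1 1.88-fold. The RAB18 call was lost without fc2 24 h replicate 3 (adjusted p = 0.0103). RD29B rose 6.97-fold without fc2 cycling replicate 1 and was still called.

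In "cycling vs 24 h, wt", NCED3, ABI2, HAB1 and HAI1 rose and none fell, against 19.2% of all 19600 genes that rose. HAI1 had 6.93, 10.2 and 5.77 CPM in wt in cycling light, against 2.21, 0.778 and 1.47 CPM in 24 h light, and rose 5.04-fold (log2FC 2.33 ± 0.32, adjusted p = 0.000189). HAB1 rose 2.58-fold in wt (log2FC 1.37 ± 0.06, adjusted p = 7.13e-08) and NCED3 2.56-fold (log2FC 1.36 ± 0.24, adjusted p = 0.00105). ABI2 rose 1.74-fold (log2FC 0.80 ± 0.09, adjusted p = 2.78e-05). RAB18 had 7.70 to 10.4 CPM in wt in cycling light, against 8.04 to 9.37 CPM in 24 h light. RD29B was 1.76-fold higher (adjusted p = 0.0661) and ABI1 1.15-fold higher (adjusted p = 0.0281) in wt in cycling light, and neither was called. All cycling light libraries of these genes were above all 24 h libraries, as for 29.8% of all genes tested.

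**Figure D4:**
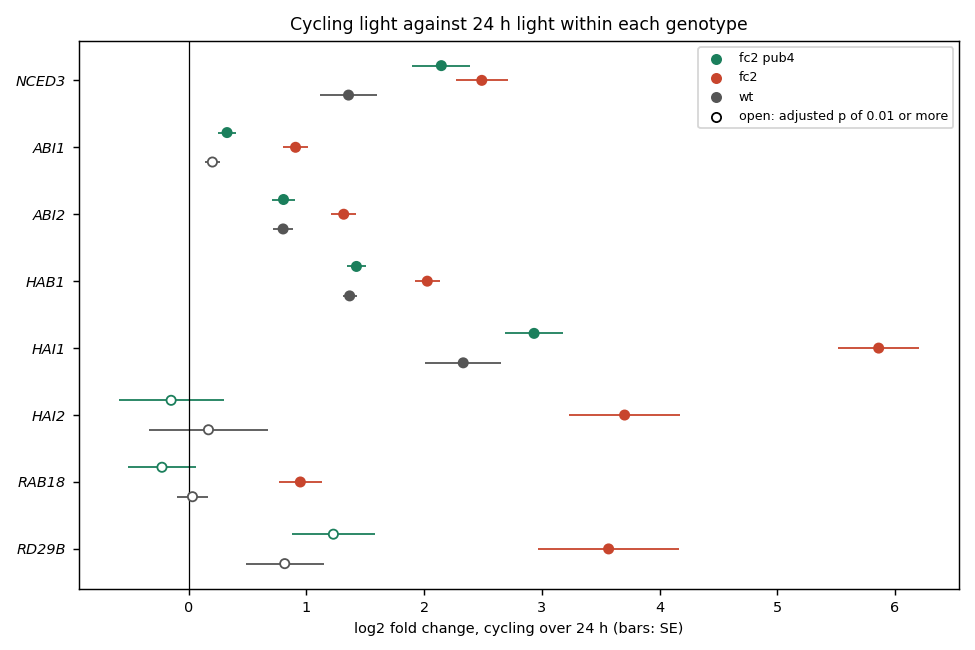
The log2 fold change of cycling over 24 h light in each genotype, with its standard error, filled where the adjusted p was under 0.01. The fc2 value is the highest of the 3 for every gene, from 0.91 for ABI1 to 5.86 for HAI1.

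Whether the light response differed between genotypes was tested as an interaction. In "genotype by light, fc2 and wt", 7 of the 8 genes had a larger increase in fc2, against 15.3% of all 20411 genes. The difference of log2 changes was 3.57 ± 0.59 for HAI1 (adjusted p = 0.000244), 3.56 ± 0.77 for HAI2 (adjusted p = 0.00196), 0.73 ± 0.13 for ABI1 (adjusted p = 0.000484) and 0.68 ± 0.12 for HAB1 (adjusted p = 0.000437). It was 2.77 ± 0.76 for RD29B, 0.94 ± 0.24 for RAB18 and 0.54 ± 0.14 for ABI2, with adjusted p of 0.00893, 0.00619 and 0.00601. NCED3 missed the threshold (1.15 ± 0.35, adjusted p = 0.0166). Of the 12 fits that left out a library, the RD29B call held in 2 (1.98 without fc2 cycling replicate 1), the ABI2 call in 3, the RAB18 call in 5 and the HAI2 call in 11 (lost without wt 24 h replicate 1, at 2.86), and 4 genes remained called without wt cycling replicate 3.

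In "genotype by light, fc2 pub4 and fc2", 4 genes had a smaller increase in fc2 pub4, against 14.2% of all 20541 genes. For HAI2, 1 of the 4, no increase was called in fc2 pub4. HAI2 differed by -3.87 ± 0.71 (adjusted p = 0.000566), HAI1 by -2.95 ± 0.53 (adjusted p = 0.000513), HAB1 by -0.62 ± 0.14 (adjusted p = 0.00244) and ABI1 by -0.60 ± 0.14 (adjusted p = 0.00353). The ABI1 call was lost without fc2 cycling replicate 2, fc2 24 h replicate 3 or fc2 pub4 24 h replicate 1 (adjusted p up to 0.0113). ABI2, RAB18 and RD29B had adjusted p of 0.0101, 0.0153 and 0.0226, and DESeq2 called all 3. In "genotype by light, fc2 pub4 and wt", edgeR and DESeq2 called none of the 8 and none had an unadjusted p under 0.05, against 0.248% of all 20185 genes called in either direction. For RAB18, whose log2FC in fc2 pub4 vs wt was -2.01 ± 0.18 in cycling light and -1.76 ± 0.23 in 24 h light, the test of the difference between the lights gave an adjusted p of 0.758.

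Between genotypes in cycling light, the other 76 genes of 8 ABA pathway lists did not move in 1 direction. In "fc2 vs wt, cycling", 21 of the 61 that could be tested rose and 13 fell, beside the 21.8% of all genes that rose and 21.0% that fell. In "fc2 pub4 vs fc2, cycling", 13 of 62 rose and 23 fell, beside 17.4% and 19.0% of all genes. In "fc2 pub4 vs wt, cycling", 10 of 61 rose and 10 fell, beside 6.32% and 8.02% of all genes. In 24 h light none of 59 was called between fc2 and wt. The median log2FC of these other genes in cycling light was 0.08 for fc2 vs wt and -0.21 for fc2 pub4 vs fc2. Between the lights more of them rose than fell in every genotype. In cycling light 25 of 60 rose and 5 fell in fc2 pub4, beside 20.7% and 19.4% of all genes. In fc2 30 of 61 rose and 10 fell, beside 22.7% and 21.3%. In wt 29 of 60 rose and 7 fell, beside 19.2% and 16.1%.

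Among synthesis genes, with NCED3 counted, 3 of 7 rose and 3 fell in "fc2 vs wt, cycling", beside 21.8% and 21.0% of all genes. ABA3, which makes the cofactor of the last enzyme, rose by a log2FC of 1.07 ± 0.15, and AAO3, the aldehyde oxidase that takes the last step, by 0.65 ± 0.08. ABA2, the dehydrogenase before it, fell by 0.87 ± 0.07 on the log2 scale. In fc2 pub4 relative to fc2, ABA3 and AAO3 fell (-0.63 and -0.60) and ABA2 rose (0.58). ABA3 in this comparison was called in 3 of 6 fits that left out a library. The calls in the list were 4 in all, beside 36.4% of all genes called in either direction. They were 2 without fc2 cycling replicate 2 or fc2 pub4 cycling replicate 1 or 3.

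Among genes for turnover and conjugation of ABA, more rose than fell in fc2, and of 3 transport genes 1 rose and 1 fell. Of 8 turnover and conjugation genes, 5 rose and 1 fell in "fc2 vs wt, cycling", beside 21.8% and 21.0% of all genes. In "fc2 pub4 vs fc2, cycling", 5 fell and 1 rose, beside 19.0% and 17.4% of all genes. BGLU18 was among the 5 that rose in fc2, and BGLU33 was the 1 that fell. The list mixes hydroxylases and glucosyltransferases with glucosidases, so its counts give no direction for the level of ABA. The glucosyltransferase UGT71B6 rose in fc2 by a log2FC of 2.12 ± 0.15, and the ABA 8'-hydroxylases CYP707A4 and CYP707A1 by 1.85 ± 0.22 and 1.33 ± 0.13. In fc2 pub4 relative to fc2, CYP707A4 had a log2FC of -2.56 ± 0.21, the glucosidase BGLU18 -1.56 ± 0.11 and UGT71B6 -1.23 ± 0.14. ABCG40, an ABA importer, rose by 4.33 ± 0.25 in fc2 and had a log2FC of -3.41 ± 0.11 in fc2 pub4 relative to fc2. NPF4.6, another importer, fell in fc2 (-0.57 ± 0.10), a call lost without fc2 cycling replicate 2 (adjusted p = 0.0104), and the exporter ABCG25 was lower in fc2 pub4 than in fc2 (-0.44 ± 0.11), a call that held in 1 of 6 fits that left out a library.

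Receptors and phosphatases moved in opposite directions. In fc2, 5 of 9 tested receptor genes fell and none rose, beside 21.0% and 21.8% of all genes. PYL6 (-2.15 ± 0.45), PYL4 (-0.99 ± 0.11) and PYL9 (-0.77 ± 0.09) led. In fc2 pub4 relative to fc2, 6 of 10 rose and none fell, beside 17.4% and 19.0% of all genes. PYL6 (2.78 ± 0.35), PYL4 (1.61 ± 0.11) and PYR1 (0.81 ± 0.07) led. The PYL6 call in fc2 held in 3 of 6 fits that left out a library. Of the 7 clade A phosphatases tested, 6 rose in fc2 and none fell, beside 21.8% and 21.0% of all genes. All 7 fell in fc2 pub4 relative to fc2, beside 19.0% of all genes. Beyond the 5 described above these were AHG3 (0.77 ± 0.15 in fc2 vs wt and -1.52 ± 0.16 in fc2 pub4 vs fc2) and HAB2 (0.46 ± 0.06 and -0.68 ± 0.08).

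Of 9 SnRK2 kinase genes, SNRK2.3 (1.09 ± 0.12) and SNRK2.2 (0.60 ± 0.07) rose in fc2, beside 21.8% of all genes. SNRK2.8 fell (-0.35 ± 0.07), beside 21.0% of all genes, with a call that held in 3 of 6 fits that left out a library. In fc2 pub4 relative to fc2, 2 rose and 3 fell, beside 17.4% and 19.0% of all genes. Among these kinases were SNRK2.5 (1.00 ± 0.13), SNRK2.8 (0.42 ± 0.06) and SNRK2.3 (-0.92 ± 0.12). These 5 calls became 3 without fc2 pub4 cycling replicate 1 or 3 and 7 without fc2 cycling replicate 3. Of 11 transcription factor genes, 6 rose and 1 fell in fc2, beside 21.8% and 21.0% of all genes. The NAC factor RD26 rose 4.92-fold and the homeodomain factor HB7 4.28-fold, and the bZIP factor ABI5 rose by a log2FC of 1.84 ± 0.47 with a call that none of 6 fits that left out a library kept. In fc2 pub4 relative to fc2, 5 fell and 1 rose, beside 19.0% and 17.4% of all genes. HB7 (-2.34 ± 0.25), HB12 (-1.30 ± 0.14) and GBF3 (-0.66 ± 0.09) led.

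Output genes were divided. Of 15 tested, with RAB18 and RD29B counted, 5 rose and 1 fell in fc2, beside 21.8% and 21.0% of all genes. RAB18 and RD29B were among the 5 that rose. In fc2 pub4 relative to fc2, 5 fell and 1 rose, beside 19.0% and 17.4% of all genes, and RAB18 was among the 5 that fell. The late embryogenesis abundant gene LEA4-5 rose by a log2FC of 2.59 ± 0.33 in fc2, the membrane protein gene TSPO by 2.45 ± 0.40 and the caleosin gene RD20 by 1.76 ± 0.27. In fc2 pub4 relative to fc2 the log2FC was -4.39 ± 0.36 for LEA4-5, -3.80 ± 0.46 for TSPO and -2.18 ± 0.31 for RD20.

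**Figure D5:**
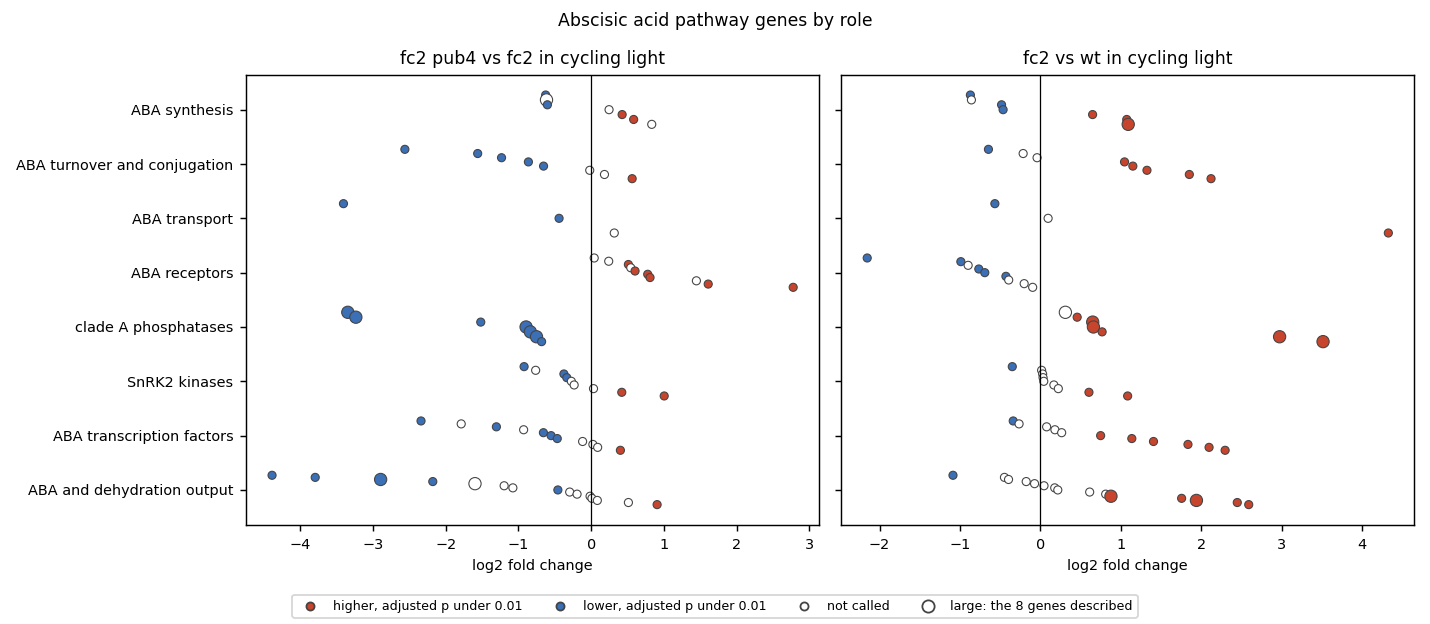
The log2 fold change of each tested ABA pathway gene by role, in fc2 pub4 vs fc2 (left) and fc2 vs wt (right) in cycling light. Red points were called higher and blue points lower, and the receptors lie on the other side of 0 from the clade A phosphatases in both panels.

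Levels of the 8 genes over the 18 libraries were set beside those of all 20630 genes that passed the filter, as a description without a test, because the libraries share genotypes and light conditions. HAB1 was most like LACS8 (Pearson r = 0.994), AT3G46450 and GR1, and HAI1 was most like TPPD (r = 0.986), MYB112 and AAE3. ABI1 was nearest to SUS3 (r = 0.976), NTRA and AT3G24180, and ABI2 to SHV3 (r = 0.976), FMO GS-OX4 and SPS2F. For NCED3 these were CRL1 (r = 0.969), ACD11 and AT5G56980, and for HAI2 AT5G20940 (r = 0.945), AT5G22860 and AT4G33150. RAB18 had AT4G24480 (r = 0.941), AT3G17070 and ANK, and RD29B had AT5G51620 (r = 0.936), AT3G55470 and AT3G56320. None of the 8 genes was among the nearest 3 of another.

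The spread between replicates differed among genes and groups. Over the 6 groups the highest library of a group was at most 1.29 times the lowest for ABI1, 1.23 times for ABI2 and 1.28 times for HAB1. It was 1.40 to 2.84 times for HAI1, 1.52 to 4.63 times for HAI2 and 1.27 to 4.31 times for RD29B, with the highest RD29B value in fc2 in cycling light. Replicate 3 of fc2 in cycling light was the lowest of its group for 7 of the 8 genes, and replicates 2 and 3 of wt in cycling light were the highest and the lowest of their group for 7 each.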

How the data were processed

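Leaf RNA was sequenced from 18 libraries (6 groups of 3), each pooling leaves of 3 plants. Reads (single-end, 50 bases) were placed on the TAIR10 genome by HISAT2 2.1.0 and assembled by StringTie 1.3.4 by the authors, who deposited raw counts per gene (whole reads, not normalized); strand and overlap settings of the counting are not given in the sources used here. The counts were fitted in edgeR 4.0.16 (R 4.3.3) by quasi-likelihood tests with TMM scaling and default filterByExpr, 6 libraries per pair of groups and 12 per interaction, with Benjamini-Hochberg adjustment over all genes tested. Calls were made at an adjusted p under 0.01, and DEGs also at an absolute log2FC above 1.5. CPM values were scaled by TMM over 18 libraries. p-values measure the spread between pools of plants. Of other pathway genes, the 3 with the largest absolute log2FC per list among those called in each of 2 cycling light comparisons were named, and for each of the 8 genes the 3 most correlated genes (log2 CPM, prior count 2). The 8 genes and the lists were chosen with earlier results of these data known. The fits were also run on simulated counts with known changes. That simulation changed few genes, so it did not test the scaling under broad shifts such as those in cycling light. Alternatives were DESeq2 1.42.0, other scalings and filters, all 18 libraries in 1 fit, a replicate block and leaving out each library.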

Additional observations from a re-analysis of the deposited data

Results flagged for a closer look

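The response to cycling light differed between genotypes, by the interaction term of the edgeR fit, for 7 of the 8 genes in fc2 and wt. It did so for 4 in fc2 pub4 and fc2. The shares of all genes called in the same direction were 15.3% and 14.2%. Between fc2 and wt the difference of log2 changes was 3.57 for HAI1, 3.56 for HAI2, 2.77 for RD29B, 0.94 for RAB18, 0.73 for ABI1, 0.68 for HAB1 and 0.54 for ABI2, each a larger increase in fc2. Between fc2 pub4 and fc2 it was -3.87 for HAI2, -2.95 for HAI1, -0.62 for HAB1 and -0.60 for ABI1. Each was a smaller increase in fc2 pub4, or no called increase in the case of HAI2. Of the 12 fits that left out a library, the RD29B call between fc2 and wt held in 2, the ABI2 call in 3 and the RAB18 call in 5. The 2 interactions share the fc2 libraries.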

How the results depend on the processing

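No called log2FC of the 8 genes changed sign under any alternative. Requiring an absolute log2FC above 1.5 as well left 3 of the 8 genes in "fc2 vs wt, cycling" (HAI1, HAI2 and RD29B), 1 in "fc2 pub4 vs wt, cycling", 3 in "fc2 pub4 vs fc2, cycling", 2, 5 and 1 in "cycling vs 24 h" of fc2 pub4, fc2 and wt, and 3 and 2 in the interactions of fc2 with wt and of fc2 pub4 with fc2. The count of called genes in "fc2 pub4 vs wt, 24 h" was 2 without a filter, with DESeq2, with all 18 libraries in 1 fit and at an adjusted p under 0.05, ABI2 being the added gene. In the interaction of fc2 pub4 and fc2 it was 7 with DESeq2, with all 18 libraries in 1 fit and at an adjusted p under 0.05. Leaving out each library in turn gave 5 to 8 called genes in "fc2 vs wt, cycling", 6 to 7 in "fc2 pub4 vs fc2, cycling", 2 in "fc2 pub4 vs wt, cycling", 0 in "fc2 vs wt, 24 h", 0 to 1 in each 24 h comparison of fc2 pub4, 4 to 5 in fc2 pub4, 7 to 8 in fc2 and 4 in wt for light, and 4 to 8, 3 to 6 and 0 for the interactions of fc2 with wt, fc2 pub4 with fc2 and fc2 pub4 with wt.

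Replicate numbers did not pair the samples (correlations of -0.15 to 0.20 between same-numbered libraries). A fit with the replicate number as a block called 6 genes in "fc2 vs wt, cycling", with RD29B at an adjusted p of 0.01 (log2FC 1.73), 7 in "fc2 pub4 vs fc2, cycling" (RD29B being the added gene, adjusted p = 0.00558) and 6 in the interaction of fc2 pub4 and fc2 (RAB18 and RD29B added). Scaling by library size alone shifted the median of all genes by 0.23 in "fc2 vs wt, cycling" and by -0.12 in "fc2 pub4 vs fc2, cycling", with 7147 of 9612 called genes higher in the first (4377 of 8610 with TMM) and 2318 of 7570 in the second (3509 of 7329). It added ABI2 to the calls in the first (0.54, adjusted p = 0.0011) and removed ABI1 from "cycling vs 24 h, fc2 pub4" (0.19, adjusted p = 0.0761). Among other pathway genes in "fc2 vs wt, cycling" it removed NPF4.6 (-0.33, adjusted p = 0.0154) and SNRK2.8 (-0.12, adjusted p = 0.142) from the calls and gave 6 called SnRK2 genes, against 3 with TMM. RAB18 lost its interaction call between fc2 and wt in the fit of all 18 libraries (adjusted p = 0.0134). The cause of these shifts was not tested. Of 34 log2FC values with an unadjusted p of 0.05 or more, 19 changed sign on leaving out a library. HAI2 and RD29B had as few as 7 and 5 counts in a library, so that their levels there carry a large counting error.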
